A study of Mus musculus with 3 samples.

Results

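The comparison was that of calcidiol (25(OH)D3) with vehicle in mpkDCT cells, a mouse kidney line of distal convoluted tubule origin whose Cyp27b1 gene was disrupted by CRISPR-Cas9. All 3 arrays of the series carried RNA of cells with that knockout, and no array came from cells with an intact gene. Sample titles carry a tag, siCT, whose meaning no label gives, and the description of the calcidiol sample once writes the compound as 25(OH)2D3, whereas its treatment label, followed here, is 25(OH)D3. The vehicle and calcidiol cultures were kept for 24 h in medium free of phenol red, with 2% of serum stripped by charcoal, and then for another 24 h in the same medium with vehicle or with 1e-07 M calcidiol, with 1 Agilent 1-colour array each. A further array, of cells given 1e-07 M calcitriol (1,25(OH)2D3) for 24 h, is set beside them. The sources used here do not say whether the knockout line was a single clone. A gene entered the comparison if it had a probe well above background on both arrays, away from the array edge and without an outlier flag, which left 15640 of the 36994 gene names on the array. With 1 array per group there was no replicate, so every difference is described by its size and no test was made.

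Vitamin D3 is hydroxylated in the liver to calcidiol, the main circulating form, and then in the kidney by the 1α-hydroxylase CYP27B1 to calcitriol. The 2 compounds differ by the hydroxyl group at carbon 1 that this enzyme adds. Calcitriol binds the vitamin D receptor tightly, whereas calcidiol binds the same receptor with a much lower affinity. The receptor pairs with a retinoid X receptor on DNA, often at direct repeats of a core motif spaced 3 bases apart, and among its best known targets are Cyp24a1, which degrades both compounds, and calcium-handling genes of the distal tubule and intestine. The comparison with vehicle asks which transcripts differed with calcidiol when the enzyme that converts it had been disrupted.

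Detection was close between the arrays: 50.98% of spots were well above background with vehicle, 49.7% with calcidiol and 49.92% with calcitriol. The scanner's quality flags differed: variation between spike-in spots was in range on the calcidiol array but not on the vehicle and calcitriol arrays, and variation between replicate spots was in range on the vehicle and calcidiol arrays but not on the calcitriol array. The lowest signals that were well above background were 13.4, 17.9 and 13.8, in that order. The ± beside a difference is the spot error assigned by the scanner software, combined on the log2 scale, without any variation between cultures. Within the arrays, 285 probes printed 10 times gave 2249 usable spots, of which 0 were off their probe's mean difference by 2-fold and 3 by 0.5 or more on the log2 scale. Spots with an outlier flag had been left out before this count. Such a flag can mark a spot that departs from its replicates, so the count can understate their spread. Array readings, not yet merged by gene, were 2-fold apart more often near the array edge, at 7.89% of the outermost row or column and 1.51% of rows and columns 3 to 6, against 0.573% to 0.867% further in. The outermost 6 rows and columns were therefore left out. Slide position also differed from array to array, and it cannot be told apart from the group.

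The targeted gene and the receptor came first. Cyp27b1 read 2.91 with vehicle, 3.82 with calcidiol and 7.05 with calcitriol, none of them well above background. The sources used here do not place its probe relative to the edit, so these readings check nothing about the knockout. For Vdr, the receptor itself, the signal was 1560 with vehicle, 1379 with calcidiol and 1386 with calcitriol, a log2 difference of -0.29 ± 0.20 for calcidiol, and -0.18 by its other probe. The receptor transcript was thus present on every array and did not reach 2-fold apart. The list of the receptor and its coregulators had 14 of 15 members measured, with 0 at least 2-fold apart and a median of -0.04.

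Across all genes measured, 103 (0.659%) stood at least 2-fold above vehicle with calcidiol and 21 (0.134%) at least 2-fold below it, that is 124 (0.793%) apart in all. Of the genes 2-fold apart, 83.1% were higher, and 72.8% after median centring. The median difference over all genes was -0.01 on the log2 scale with an SD of 0.27 across genes, and 94.2% of genes lay within 0.5 of 0. Genes were divided almost evenly by sign, with 7546 (48.2%) above 0 and 8094 (51.8%) below. At least 4-fold differences were found for 16 genes on the higher side and for 1 gene, Tubgcp5, on the lower side. The threshold cut through a dense range: 23 higher genes lay within 0.1 log2 above it and 35 genes within 0.1 below it. Among genes with a symbol, 67 were higher and 14 lower. Spots around 92 of the higher genes and all 21 lower ones gave local median differences between -0.22 and 0.13, so none of these genes lay in a patch that differed by a comparable amount.

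**Figure D1:**
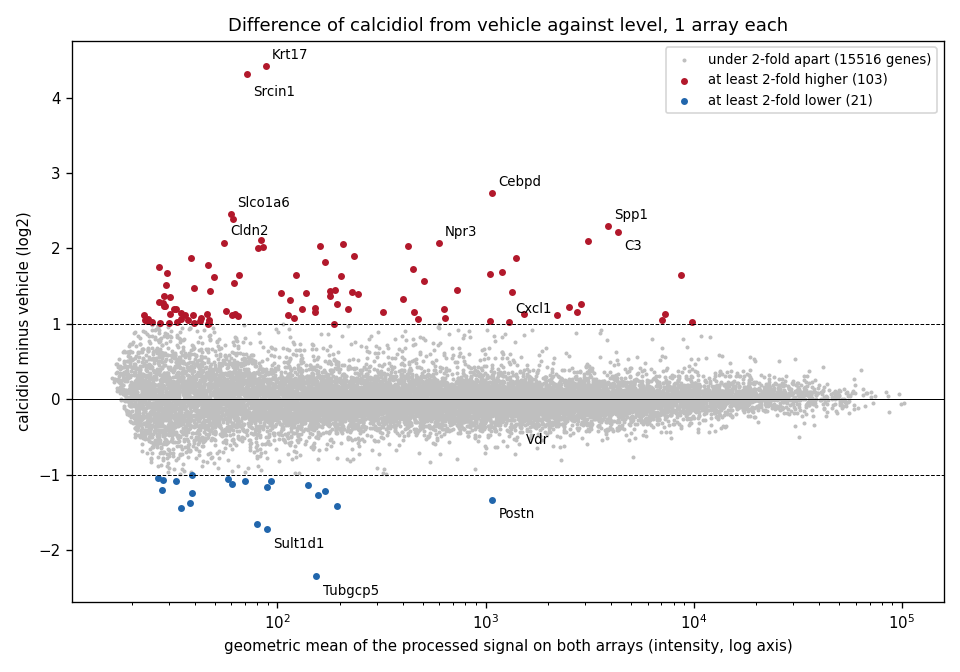
Each point is 1 of the 15640 genes measured, with the geometric mean of its processed signal on both arrays (log axis) against the log2 difference of calcidiol from vehicle, and dashed lines mark 2-fold. The 103 higher genes include Krt17 and Srcin1 above 4 on the log2 scale, the 21 lower genes reach -2.35, and the scatter is wider at low signal.

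Low signal set how firmly a difference could be read. Among genes with a vehicle signal under 25, 4.41% were 2-fold apart, against 0.0947% of genes at 2000 or more. Those 2-fold apart under 25 comprised 30 higher and 0 lower genes. A 2-fold lower gene there would lie under 17.9, the lowest calcidiol signal well above background, and could not be counted. Of the 103 higher genes, 33 had a vehicle signal under 2 times the lowest signal that was well above background. The fold of such genes rests on a reading near the detection limit. With normexp background correction (offset 50) and quantile normalisation, which damps low signals, the counts were 47 higher and 4 lower. A further 406 genes were well above background with calcidiol but not with vehicle, and 114 of them (28.1%) were higher by a bound of at least 2-fold. The bound sets the calcidiol level against the higher of the lowest well-measured vehicle signal and the probe's own reading. On the other side, 27 of 720 (3.75%) genes seen only with vehicle were lower by such a bound. These shares are not shares of all genes, since only genes missing from 1 array could enter. The lowest signal well above background also differed, at 13.4 with vehicle and 17.9 with calcidiol, so the shares cannot be compared directly.

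Among vitamin D genes, Cyp24a1, whose enzyme starts the breakdown of calcidiol and calcitriol, had the largest bound (probe on chromosome 2, 170308865 to 170308924, mm9). Its signal was 2.68 with vehicle, not well above background, 288 with calcidiol and 5443 with calcitriol. It was therefore at least 20-fold higher with calcidiol and at least 398-fold higher with calcitriol, and the calcitriol level was 19.9-fold above that of calcidiol. S100g, which encodes calbindin-D9k, a carrier of calcium inside the cell (chromosome X, 159400032 to 159400091), read 3.45, 81.0 and 200.5 with vehicle, calcidiol and calcitriol. It was at least 5.62-fold higher with calcidiol, and detected with both compounds only. Spp1, the secreted phosphoprotein osteopontin (chromosome 5, 104869788 to 104869847), read 1685 with vehicle, 8938 with calcidiol and 25074 with calcitriol. That is a log2 difference of 2.30 ± 0.20, or 4.91-fold, for calcidiol. Cldn2, a claudin that forms cation-selective pores in tight junctions (chromosome X, 136345244 to 136345303), read 26.0, 118 and 463. It was 4.20-fold higher with calcidiol (2.07 ± 0.26), and a second Cldn2 probe was not well above background on the vehicle and calcidiol arrays. In each of these 4 genes calcidiol lay between vehicle and calcitriol.

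Cldn2, S100g, C3 and Slco1a6 are given by the 250 bases before their start site, from RefSeq (GRCm38.p6), because they were among the transcripts furthest above vehicle by size or bound and their letters hold the core motif that nuclear receptors read. Capitals mark matches on either strand to the core motif (AGGTCA, its variant AGTTCA, and the same with a leading G, GGGTCA and its variant GGTTCA) or to a C/EBP motif (TTNNGCAA), where N is any base.
Cldn2 (chrX:139800558-139800807, strand +): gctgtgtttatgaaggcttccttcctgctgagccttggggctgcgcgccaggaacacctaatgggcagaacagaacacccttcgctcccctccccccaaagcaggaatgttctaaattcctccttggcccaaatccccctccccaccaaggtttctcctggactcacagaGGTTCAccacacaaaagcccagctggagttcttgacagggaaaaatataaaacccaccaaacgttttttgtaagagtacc
S100g (chrX:162964600-162964849, strand minus): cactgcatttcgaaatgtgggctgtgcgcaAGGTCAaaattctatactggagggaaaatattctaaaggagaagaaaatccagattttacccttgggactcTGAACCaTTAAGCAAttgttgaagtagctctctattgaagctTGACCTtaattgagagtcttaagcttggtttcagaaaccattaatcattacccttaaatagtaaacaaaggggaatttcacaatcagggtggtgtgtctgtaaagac
C3 (chr17:57228137-57228386, strand minus): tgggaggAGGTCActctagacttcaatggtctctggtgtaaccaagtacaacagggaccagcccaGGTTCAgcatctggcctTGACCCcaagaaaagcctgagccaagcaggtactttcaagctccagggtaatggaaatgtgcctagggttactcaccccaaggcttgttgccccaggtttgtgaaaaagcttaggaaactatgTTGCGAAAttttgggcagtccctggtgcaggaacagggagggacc
Slco1a6 (chr6:142186150-142186399, strand minus): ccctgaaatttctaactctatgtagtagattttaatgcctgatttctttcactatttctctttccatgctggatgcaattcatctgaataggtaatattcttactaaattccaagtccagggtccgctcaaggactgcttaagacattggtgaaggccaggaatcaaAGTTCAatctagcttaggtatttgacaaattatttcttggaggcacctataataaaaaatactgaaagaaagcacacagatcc
Cldn2 and Slco1a6 each held 1 match to the core motif, at 80 and 83 bases before the start site. S100g and C3 held 3 matches each, and 1 match each to the C/EBP motif. A direct repeat of the core motif 3 bases apart was found in 0 of the 37 start sites searched, for 31 of the 38 genes looked up, namely the 30 highest genes and those with the 8 largest bounds. The promoters of Cyp24a1, Krt17, Srcin1, Cebpd, Ctxn3, Gdpd5 and Barx2 were not searched, so nothing is said of their letters. Over all 32851 start sites in the table, 0.0396% held that repeat. The core motif itself occurred in 13 of the 37 (35.1%), against 38.6% of all start sites, and the C/EBP motif in 4 (10.8%), against 9.56%. An NF-kappaB motif, GGGNNTTTCC, occurred in 1, that of Car10, against 1.41% of all. Both shares of the commoner motifs were thus near those of all promoters. A match here is a run of letters and not a measured site, and sites outside this window were not searched.

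The other listed vitamin D genes differed less. Of 31 receptor targets, 17 were measured, 2 were at least 2-fold higher (Spp1 and Cldn2) and 0 lower, with a median of 0.05, against 0.659% higher, 0.134% lower and a median of -0.01 over all genes. A further 3 were higher by their bound, Cyp24a1, S100g and Mn1, and 10 were not well above background on either array. Mn1, a transcriptional coregulator, read 12.7, 33 and 14.9 with vehicle, calcidiol and calcitriol, so it was at least 2.28-fold higher with calcidiol and not detected with calcitriol. Cdkn1a, the cyclin-dependent kinase inhibitor p21, was at -0.53 and had the lowest value of the list. Of the genes that move calcium into, through and out of the cell, no array showed Trpv5, Trpv6 or Calb1 well above background. Atp2b1, a calcium pump of the cell membrane, was at 0.03 ± 0.20. The list of calcium and magnesium transport had 6 of 19 members measured, between -0.06 and 0.12, so that S100g alone among its 19 members passed 2-fold, by its bound.

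Genes that handle vitamin D itself showed both signs. Cyp2r1, which makes calcidiol from vitamin D3, read 31.3 with vehicle, 70.1 with calcidiol and 42.4 with calcitriol, a difference of 1.05 ± 0.26 for calcidiol. Its value was 0.59 with an offset of 32 and 0.46 with normexp background correction, so its place past 2-fold depended on how low signals were treated. Lrp2, the endocytic receptor megalin that takes up the vitamin D binding protein, was at 0.88 ± 0.20 by its brightest probe and at 0.01 by the median of 2 other probes, which were dim, at 36.0 and 33.3 with vehicle. A brighter Lrp2 probe near the edge, left out, read 1450 with vehicle and 2530 with calcidiol and gave 0.69. Gc, that binding protein, read 101, 63.2 and 23.4, a difference of -0.79 ± 0.22 for calcidiol. Cubn, the partner of megalin, was at -0.02 ± 0.21.

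**Figure D2:**
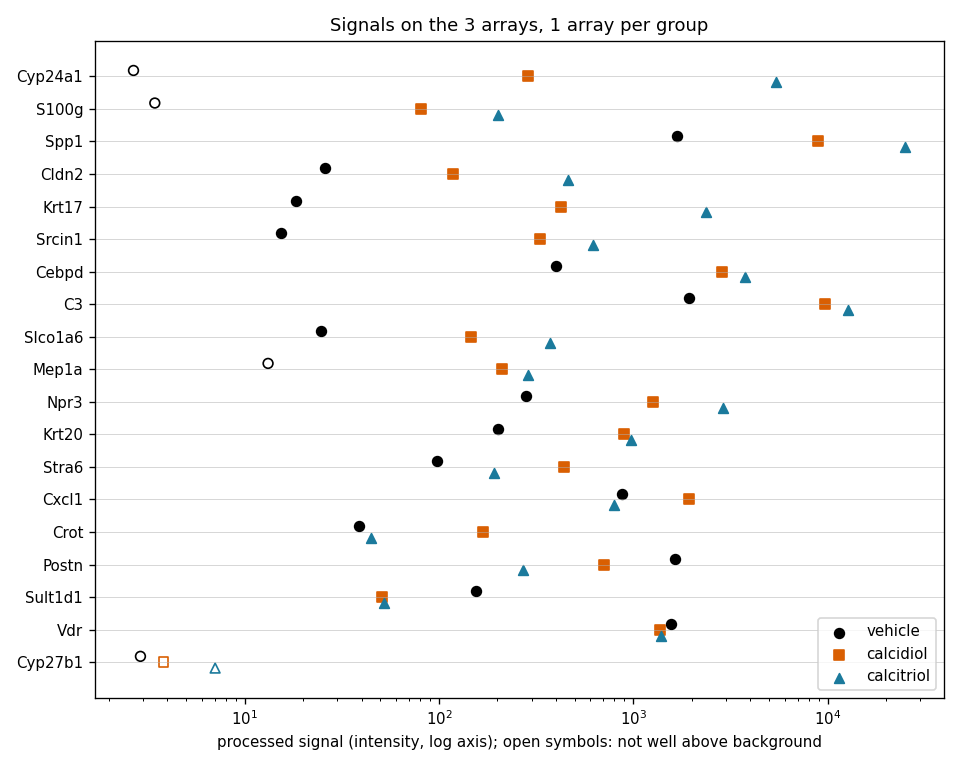
Processed signal (log axis) of 19 genes on the vehicle, calcidiol and calcitriol arrays, 1 array per group, with open symbols where the probe was not well above background. Calcidiol lies between vehicle and calcitriol for Cyp24a1, Spp1, Cldn2 and Krt17, and above both for Stra6, Cxcl1 and Crot.

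The highest measured differences belonged to structural and signalling genes. Krt17, a type I keratin (chromosome 11, 100117584 to 100117643), read 18.4 with vehicle, 424 with calcidiol and 2370 with calcitriol. Its calcidiol difference was 4.42 ± 0.30 on the log2 scale, or 21.4-fold. Krt20, another type I keratin, read 201, 891 and 969, and was 4.10-fold higher (2.03 ± 0.21). Of 11 keratins listed, 4 were measured, 2 of them at least 2-fold higher (0.659% over all genes) and 0 lower, with a median of 1.43. Krt7 was at 0.83 and Krt80 at -0.04. Srcin1, which restrains the SRC kinase (chromosome 11, 97370654 to 97370713), read 15.4, 331 and 621, and was 19.9-fold higher (4.32 ± 0.33). The vehicle readings of Krt17 and Srcin1 lay close to the lowest signal counted as well above background, so both folds rest on a dim denominator. With normexp background correction their differences were 2.49 and 2.35.

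Transcription factor and innate immune genes were next. Cebpd, the C/EBP family factor that responds to cytokines (chromosome 16, 15888459 to 15888518), read 399.8 with vehicle, 2868 with calcidiol and 3770 with calcitriol, a difference of 2.73 ± 0.20 or 6.64-fold. Of the 7 genes listed as C/EBP factors, 5 were measured, all above 0, with a median of 0.19, and Cebpd alone passed 2-fold. A further 1 was well above background with vehicle only, by a bound short of 2-fold, and the median with that bound was 0.11. Cebpb was at 0.44. C3, the central complement component (chromosome 17, 57343416 to 57343475), read 1926, 9717 and 12666 and was 4.67-fold higher with calcidiol (2.22 ± 0.20), with 2.27 by its other probe. The remaining complement genes did not share that size: of 22 listed, 7 were measured with a median of 0.00, and the lowest was Clu at -0.19. Cd55, which limits complement on the cell surface, was lower by a bound of at least 2.43-fold.

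Chemokines held 3 genes at least 2-fold higher among 9 measured, and 0 lower, with a median of 0.22, against 0.659% higher and 0.134% lower over all genes. A further 2 were well above background with vehicle only, by bounds short of 2-fold. Cxcl5 read 61.4 with vehicle, 176 with calcidiol and 153 with calcitriol, a difference of 1.41 ± 0.22 for calcidiol. Ccl20, which attracts CCR6-bearing lymphocytes, read 42.5, 98.5 and 126. Cxcl1 read 875, 1924 and 792, so it was 2.04-fold higher with calcidiol and, at -0.18, close to vehicle with calcitriol. Ccl2 was at 0.16, Ccl5 at -0.45 and Cxcl10 at -0.57, the last by a dim probe at 51.4 with vehicle. A much brighter Cxcl10 probe, left out for an outlier flag, read 4198 with vehicle and 4281 with calcidiol and gave -0.08. The 17 measured members of the wider list of NF-kappaB, cytokine and acute phase genes ran from -0.27 (Stat3) to 0.49 (Nfkbiz), with a median of 0.02 and 0 at 2-fold.

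Transport and metabolic genes were also among those named. Slco1a6, an organic anion transporter (chromosome 6, 142034707 to 142034766), read 24.7 with vehicle, 146 with calcidiol and 373 with calcitriol, and was 5.48-fold higher with calcidiol (2.45 ± 0.27). Slco1a5, a near relative that can share sequence with it, was higher by a bound of at least 2.95-fold, and the other 8 transporters measured in that list ranged from -0.30 to 0.55. Cyp1b1, a xenobiotic- and steroid-oxidising enzyme, read 40.7, 178 and 513. Mgll, which hydrolyses monoacylglycerols, read 38.6, 181 and 268 and was 4.34-fold higher. Fabp4, a fatty acid carrier, read 20.3, 50.4 and 35.8 and was 2.30-fold higher, a log2 difference of 1.20 that was 0.41 with normexp background correction. Ckb, the brain-type creatine kinase, was at 1.82 ± 0.21 and at 1.76 by its other probe. Slc25a45, a mitochondrial carrier, was at 1.66 ± 0.20 and at 1.71 by its other probe. Among the sulfotransferases, Sult1c2 was at 1.44 and Sult1d1 at -1.72, opposite in sign.

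Receptors, hormones and cytoskeletal genes were also among the 30 highest. Npr3, the natriuretic peptide clearance receptor, read 280.4 with vehicle, 1268 with calcidiol and 2911 with calcitriol, a 4.19-fold difference for calcidiol. Stc2, a secreted glycoprotein hormone of the stanniocalcin family, read 16.6, 51.4 and 65.3. Cnn1, a smooth muscle calponin, was at 1.90 and Dmpk, the myotonic dystrophy kinase, at 1.88. Srgap3, a GTPase-activating protein of the SLIT-ROBO pathway, was at 2.03. Mep1a, a brush-border metalloprotease, read 13.2, 211 and 286 and was higher by a bound of at least 14.6-fold. Barx2, a homeobox factor, and Abca1, the cholesterol exporter, were higher by bounds of at least 4.72-fold and 4.65-fold. The probe named for Samd11 read 1435, 6658 and 3704, but the array design places it on a chromosome other than the RefSeq one for that gene, and the gene's other 2 probes were dim. Its value of 2.10 therefore belongs to the probe rather than to a known transcript.

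The 21 lower genes were fewer and smaller in difference. Postn, the matrix protein periostin (chromosome 3, 54194483 to 54194542), read 1647 with vehicle, 707 with calcidiol and 272 with calcitriol, a difference of -1.33 ± 0.20. Its 2 other measured probes gave -1.34 and -1.29. Sult1d1, a sulfotransferase, read 156, 51.1 and 52.1 and was at -1.72 ± 0.23, with -0.91 by its other probe. Nfatc2, a calcineurin-regulated factor, read 137, 46.9 and 8.90 and was at -1.65. Igfbp4, which binds insulin-like growth factors, read 54.7, 21.8 and 12.2, and Sema3d, a secreted semaphorin, read 303, 123 and 53.8. For Nfatc2 and Igfbp4 the calcitriol reading was not well above background. Afm, Fam89a, Gucy1a2, Plekhg1, Mybph, Gad1, Smim22 and Aldh1a7 lay between -1.38 and -1.06. With normexp background correction 4 of the 21 lower genes stayed past 2-fold, Tubgcp5, Sult1d1, Sema3d and Postn, while Igfbp4 was then at -0.58, Afm at -0.50 and Mybph at -0.30. Tubgcp5, a component of the microtubule-nucleating complex, had the lowest value, at -2.35 ± 0.30 from 334 to 70.9, but its other measured probe gave -0.04.

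The 2 compounds are set side by side at the same dose and time, from the same vehicle array, without a test. Against vehicle, calcitriol gave 144 genes (0.918%) at least 2-fold higher and 222 (1.41%) lower of 15691 measured, 366 (2.33%) in all. Set directly against calcidiol, calcitriol was at least 2-fold higher for 73 genes (0.47%) and lower for 162 (1.04%) of 15530. Of the 103 genes higher with calcidiol, 97 were detected with calcitriol, 50 were at least 2-fold higher with it too, and 30 lay within 0.5 of vehicle. The difference was larger with calcitriol for 46 of the 103. Of the 21 lower genes, 18 were detected with calcitriol and 14 were at least 2-fold lower with it. Those not detected, Nfatc2, Igfbp4 and Mybph, read 8.9, 12.2 and 15.2 with calcitriol, below their calcidiol readings. Since both comparisons use 1 vehicle array, an error in that array would move both in the same direction, and these counts are not a measure of likeness.

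Some genes had the larger reading with calcitriol by several fold. Calcitriol exceeded calcidiol 5.90-fold for Krt17, while for Alcam, a cell adhesion molecule, it did so 4.49-fold, and for Cldn2 4.14-fold. Dcdc2a, Fbp2, Sult1c2, Cyp1b1 and Csn3 lay between 3.03-fold and 3.55-fold. For others the readings of the compounds were closer. Calcitriol minus calcidiol was 0.20 ± 0.20 on the log2 scale for Krt20, 0.46 ± 0.20 for C3, 0.47 ± 0.20 for Cebpd and -0.12 ± 0.21 for Cxcl5. Krt20 and Cxcl5 were thus within the technical error, which with 1 array each does not show that the compounds act alike.

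A further set read higher with calcidiol than with calcitriol. Crot, a peroxisomal carnitine acyltransferase, read 38.8 with vehicle, 168 with calcidiol and 44.7 with calcitriol, 3.56-fold above calcitriol. Its other probe lay on the outermost row with an outlier flag, was left out, and read 819, 749 and 829, with no such excess. Stra6, a receptor for retinol binding protein, read 97.6, 438 and 191. It was the 1 higher gene among 9 measured of the retinoid pathway, whose median was -0.06 and whose 1 lower gene was Aldh1a7. Il22ra1, a receptor chain for interleukin 22, read 24.0, 89.2 and 11.4, at least 6.12-fold above calcitriol, and its other probe was not well above background with vehicle or either compound. Mettl7a2, Ckap4, Pou4f1, Astl and Krtap5-5 were between 2.16-fold and 2.90-fold above calcitriol. Under other processing, differences of calcidiol from vehicle fell as low as 0.58 for Ckap4, 0.41 for Astl and 0.60 for Krtap5-5. The lowest were 0.69 for Pou4f1, 0.71 for Il22ra1 and 1.20 for Mettl7a2. Pnma2 was 2.97-fold and Prickle1 2.36-fold above calcitriol by the brightest probe kept. A brighter Prickle1 probe near the edge, left out, read 1177 with vehicle, 776 with calcidiol and 685 with calcitriol, with no such rise over vehicle. Single probes of Zfp536, Car10 and Ccdc180 were well above background with calcidiol alone, with signals of 89.9, 67.6 and 62.1 against 2.74 to 3.38 on the other arrays. Another Zfp536 probe, near the edge and left out, read 836.8 with vehicle, 754.2 with calcidiol and 648.1 with calcitriol (-0.26 for calcidiol). The other probes of Car10 and Ccdc180 stayed at background level on all 3 arrays.

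**Figure D3:**
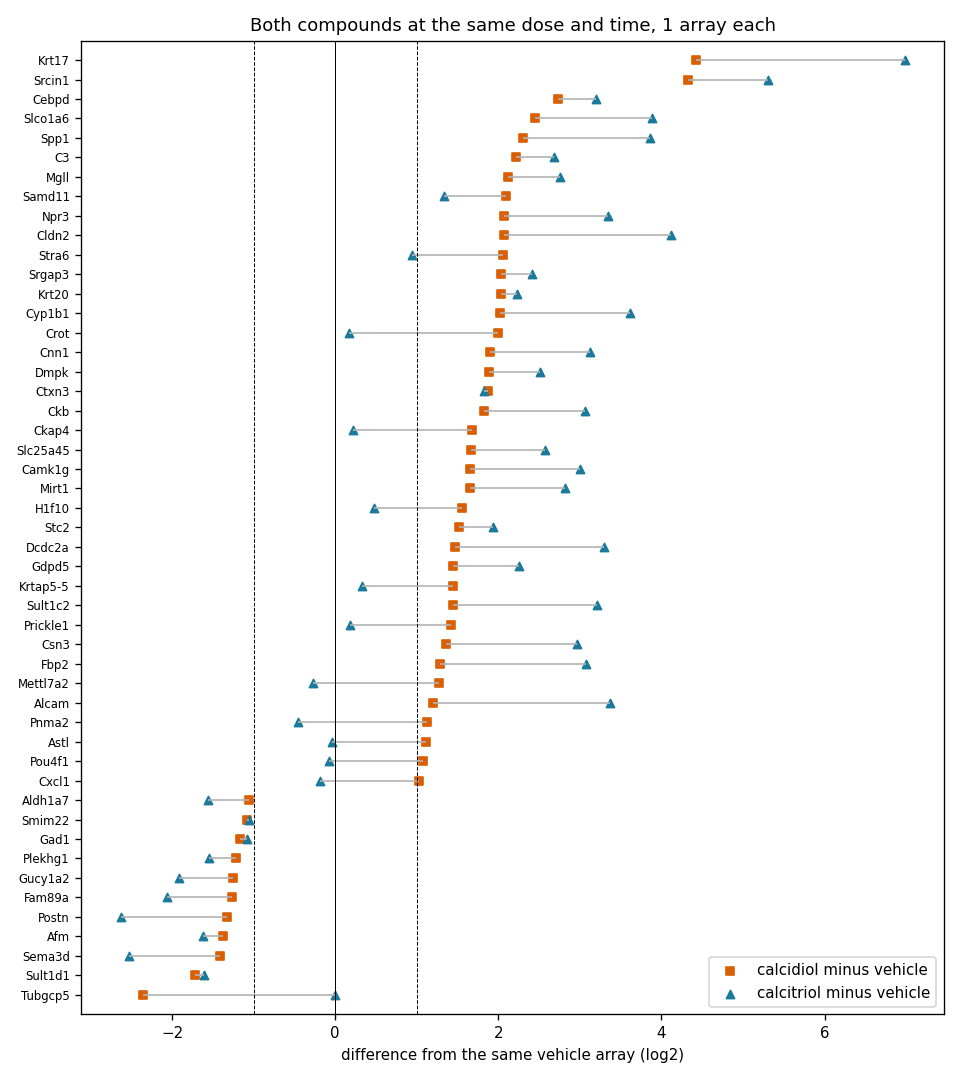
Log2 differences from the vehicle array for 49 named genes at least 2-fold apart between calcidiol and vehicle, with squares for calcidiol, triangles for calcitriol and dashed lines at 2-fold. Krt17, Cldn2 and Alcam lie further out with calcitriol, Crot, Pnma2 and Mettl7a2 with calcidiol.

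A second probe gave another reading of the same cultures for some genes. Of 13 higher genes with another probe well above background, 9 were also at least 2-fold higher with calcitriol, and in 7 of these the other probes gave 0.5 or more with calcidiol, with a median of 1.45 over the 9. The other 2 were Csn3 at -0.31 and Plce1 at 0.06. The remaining 4 genes, H1f10, Pnma2, Prickle1 and Ube4a, were less than 2-fold higher with calcitriol, and their other probes gave between -1.11 and 0.01 with calcidiol, 0 of 4 reaching 0.5. For Prickle1 the brighter probe near the edge, left out here, gave -0.71. The brightest probe was chosen over all 3 arrays. With vehicle alone, the probe used read lower than the other measured probe for Csn3 (18.4 against 26.2) and H1f10 (283.7 against 480.5). Probes of 1 gene can read different transcripts, and which of them each probe reads was not tested. Of the 4 lower genes with another probe, all 4 kept the sign by the median of their other probes and 2, Postn and Sult1d1, reached 0.5. Gad1 had other probes at -0.77 and 0.08.

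**Figure D4:**
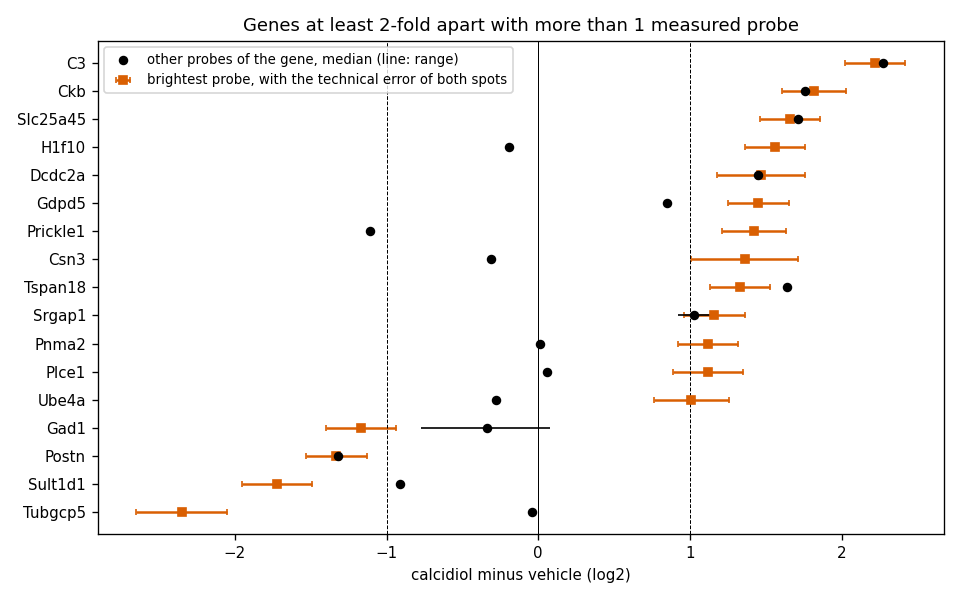
Log2 difference of calcidiol from vehicle for the 17 genes at least 2-fold apart with more than 1 measured probe, with squares for the brightest probe and its technical error and points for the median of the other probes (line: their range). C3, Ckb, Slc25a45, Dcdc2a and Postn coincide, whereas H1f10, Prickle1, Csn3, Pnma2 and Tubgcp5 stand apart.

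The lists of sterol and of fatty acid synthesis lay slightly below 0 without a measured member at 2-fold. Of 26 genes of sterol synthesis and uptake, 24 were measured, 21 of them below 0 against 51.8% of all genes, with a median of -0.12 that stayed between -0.18 and -0.11 in every processing tried. The values ran from -0.43 for Dhcr7, the reductase that also draws on the precursor of vitamin D, to 0.10 for Sqle. Srebf2, a transcription factor of sterol synthesis, was at -0.19, Insig1 at -0.06 and Scap, the escort protein of the sterol-sensing system, at 0.05. For fatty acid synthesis, 14 of 16 measured genes were below 0, with a median of -0.15, from Lpin1 at -0.55 to Agpat2 at 0.09. Of 11 targets of the liver X receptor, 6 were measured, 5 of them below 0, while the exporters Abca1 and Abcg5 were higher by bounds of at least 4.65-fold and 2.63-fold, and Abcg8, the partner of Abcg5, was at 0.60 ± 0.23.

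Matrix genes lay lower. Of 24 extracellular matrix genes, 13 were measured, 12 below 0 (51.8% over all genes), with a median of -0.38 and 1, Postn, at least 2-fold lower (0.134% over all genes). Dcn, a small proteoglycan, read 163 with vehicle, 89.6 with calcidiol and 32.4 with calcitriol, at -0.98 with calcidiol. Col1a1 was at -0.78 and at -0.57 by the median of its 2 other probes. Tnc was the only measured member above 0, at 0.23. The same transcripts mark fibroblasts: of 8 fibroblast markers, Postn, Dcn and Col1a1 were measured, their summed signal was 2053, 949 and 407 with vehicle, calcidiol and calcitriol, and Col1a2, Col3a1, Pdgfra, Pdgfrb and Thy1 were not well above background. A lower share of such cells and less RNA per cell cannot be told apart in these bulk samples, and the part of cell makeup was not tested.

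**Figure D5:**
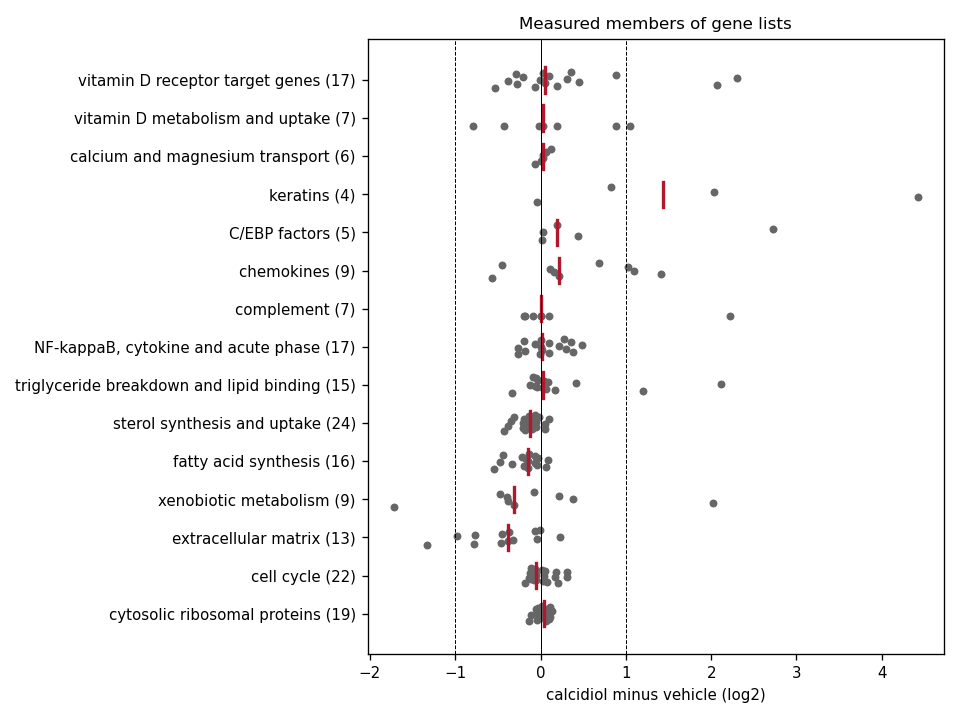
Log2 difference of calcidiol from vehicle for each measured member of 15 gene lists (number measured in brackets), with the red bar at the list's median and dashed lines at 2-fold. Most members lie within 0.5 of 0, single members such as Krt17, Cebpd and C3 stand far out, and 12 of 13 matrix genes lie below 0.

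The labelled cell type was checked against its markers. Of 9 distal convoluted tubule markers, only Wnk1 and Wnk4 were measured, at -0.13 and -0.51, and Slc12a3, the thiazide-sensitive cotransporter that defines the segment, read 5.74, 3.88 and 5.84 with vehicle, calcidiol and calcitriol on a spot near the edge, not well above background. Trpm6, Calb1, Slc8a1 and Klhl3 were likewise not well above background. Pvalb and Emx1 made up the rest of the list. In that list, 1 of the 9 was well above background with calcidiol only, by a bound short of 2-fold. Among general epithelial markers Cdh16, a kidney cadherin, was strong, at 15055, 12705 and 10867, while Cdh1, Epcam, Krt8 and Krt18 did not pass that call on any of the 3. Proximal tubule, collecting duct, endothelial and leukocyte lists had 3, 1, 1 and 3 markers measured, and no thick ascending limb marker was measured. With vehicle, the 3 proximal tubule markers Lrp2, Aqp1 and Cubn read 1923, 1189 and 151, while Wnk1 and Wnk4 read 5809 and 90.7. The segment's defining transporter was thus absent from the measured genes, and the cells are named here as the labels name them.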

How the data were processed

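Total RNA of 3 cultures was amplified, labelled with Cy3 and hybridised to Agilent mouse arrays, 1 array per group. The deposited scanner files give the intensity of each spot, on a linear scale. Background was corrected and probes were placed on mm9 by Agilent Feature Extraction, version 10.7.1.1 per the file headers and 9.5.1.1 per the submitters' processing notes. In the deposited value table each probe has 1 linear intensity, and all columns share a log2 median of 3.71. The sources used here do not name its tool, and it served as an alternative only.

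Control spots, spots with an outlier flag on any array and the outermost 6 rows and columns were left out. From the log2 signal of each array its 75th percentile was subtracted (371.1 for vehicle, 400.8 for calcidiol, 379.8 for calcitriol). The brightest probe stood for a gene, among those well above background on both arrays, and otherwise given a bound. Probe coordinates are those of the array design, and exon or intron was not assigned. Of 56605 probes, 33889 took their name by accession from RefSeq's GRCm38.p6 gene table, 9951 through a symbol or synonym, and 12765 kept the design's name. The number of arrays limits the precision, so there was no test and 2-fold was the threshold of size. Counting was tested on simulated data.

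The comparison, the 39 gene lists and the naming rule were chosen with earlier results of these data known. The rule took, among genes with a symbol, the 30 highest and 20 lowest past 2-fold, the 8 largest bounds each way, list members past 2-fold, the extremes of each list, the 10 largest differences between compounds each way, and 22 vitamin D, calcium and sterol genes. Csn3, Plce1 and Ube4a among the probe comparisons, and list members within the extremes, were named after their values were seen. Some genes that the rule takes are left out of the text. Alternatives covered centring, normalisation, background, detection, edges, outliers, probe averaging and thresholds. Software was Python 3.11.15 (numpy 2.4.6, pandas 2.3.3, matplotlib 3.10.9) and R 4.3.3 (limma 3.58.1).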

Additional observations from a re-analysis of the deposited data

How the results depend on the processing

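The count of genes at least 2-fold higher with calcidiol stayed between 83 and 142, and that of lower genes between 17 and 31, under median centring, quantile or cyclic loess normalisation, all spots kept, 12 edge rows and columns left out, outlier spots kept, the mean over probes, the deposited value table and, chosen after seeing the data, outlier flags of the calcitriol array ignored. The counts moved further with the treatment of low signal and with the threshold: normexp (offset 50) with quantile normalisation gave 47 higher and 4 lower genes, adding 32 to every signal gave 55 and 7, leaving out the genes under the 25th percentile gave 55 and 4, and there were 383 and 226 when detection on either array sufficed. A 1.5-fold threshold gave 400 and 201 genes, and a 3-fold threshold 31 and 3. Of the 103 higher genes, 83 were still past 2-fold after median centring, 55 with the offset and 90 with the wider edge left out. Prickle1 turned to -0.71 with all spots kept, and Csn3 to -0.31 with the wider edge left out, since another probe was then read. The other genes past 2-fold that the naming rule takes kept their sign wherever they were measured, while Plce1, Ube4a and genes given by bounds were not followed through the alternatives. No paired analysis was possible because each group had 1 array. Signals near 13.4 to 17.9, the lowest well above background, limit every fold of a dim gene, and 1 array per group limits them all.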

Other observations

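Growth and housekeeping lists differed little between calcidiol and vehicle. All 22 cell cycle genes were measured, from -0.18 (Aurka) to 0.31 (Mcm7), with a median of -0.05, and 19 of 20 cytosolic ribosomal protein genes had a median of 0.04. Unfolded protein and ATF4 genes had a median of 0.03 over 16 measured, respiratory chain genes 0.05 over 12, and interferon and antigen presentation genes -0.05 over 23. None of these 5 lists held a gene at 2-fold. The list of hypoxia and glycolysis had its median at -0.07 with calcidiol and -0.33 with calcitriol over the same 23 genes, and Hk2, the inducible hexokinase, was at -0.12 and -1.21. The 14 measured clock genes had a median of -0.16, with Per2 lowest at -0.54. Gclc, the catalytic subunit of the glutathione-making ligase, was at -0.64 with calcidiol and -1.05 with calcitriol, the lowest of 14 measured genes of its list.

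The insulin-like growth factor list showed members of both signs. Igf1 read 584 with vehicle, 969 with calcidiol and 3356 with calcitriol, at 0.62 ± 0.20 with calcidiol and 0.56 by the median of its 2 other probes. Igfbp6, at -0.70, and Igfbp2, at -0.51, were lower, as was Igfbp4. Sgk1, the aldosterone- and glucocorticoid-induced kinase, was readable on the outermost row only, at 869 with vehicle, 3105 with calcidiol and 2337 with calcitriol, and was left out of all counts, while a second Sgk1 probe was not well above background. Among the other glucocorticoid-responsive genes, Klf9 was at -0.62, Pdk4 at -0.53 and Fkbp5 at -0.34, and Cebpd was the 1 of 12 measured that passed 2-fold. A second Klf9 probe, at the outermost edge and left out, read 760 with vehicle and 869 with calcidiol and gave 0.08. Of 1099 large intergenic non-coding regions measured, 11 were at least 2-fold higher and 0 lower, against 0.659% and 0.134% of all genes.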
